A study of Mus musculus with 4 samples.

Results

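The proximal miRNAs of the imprinted Dlk1-Dio3 domain, which include those lying antisense to the gene Rtl1, were followed in mouse lung. They were taken as the 10 assays of the normalized table that carry the miRBase names mmu-miR-673-5p, mmu-miR-337-5p, mmu-miR-337-3p, mmu-miR-540-3p, mmu-miR-665, mmu-miR-431, mmu-miR-433, mmu-miR-127, mmu-miR-136 and rno-miR-136 (the last named for rat), of 750 miRNA assays in all. Levels were measured by TaqMan quantitative PCR on total RNA of the right lung, in 4 groups of mice with 1 library each. Adults, 2 months old, and newborns, less than 12 h old at the start and 3 days old at collection, were kept for 72 h in 95% oxygen (hyperoxia) or in room air. The groups are named adult hyperoxia, adult room air, neonatal hyperoxia and neonatal room air. The labels give no strain, no genotype and no number of animals per library, and each nursing dam spent alternate days in the other atmosphere.

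In the Dlk1-Dio3 domain the protein-coding genes Dlk1, Rtl1 and Dio3 are expressed from the paternal chromosome, and a long series of noncoding RNAs, starting with Meg3, from the maternal one. Rtl1 encodes a retrotransposon-derived protein needed in placental capillaries and muscle. The hairpins of miR-431, miR-433, miR-127 and miR-136 lie on the maternal transcript opposite the Rtl1 coding sequence, so their miRNAs match Rtl1 mRNA fully and can direct its cleavage. Domain miRNAs are abundant in fetal and perinatal tissues, and miR-127 has been studied in the fetal lung of the rat.

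In the RefSeq tables (build GRCm38.p6) the members come from 8 hairpins, all on the plus strand of chromosome 12 and together 23.4 kb long. The first group lies towards Meg3 (chr12:109540996-109571729). Its hairpins are those of miR-673 (chr12:109571990-109572080), miR-337 (chr12:109585789-109585885), which gives both miR-337-5p and miR-337-3p, miR-540 (chr12:109586080-109586146) and miR-665 (chr12:109586314-109586407). After a gap of 4.04 kb follow the Rtl1 antisense hairpins, within 4.94 kb. They are those of miR-431 (chr12:109590447-109590537), miR-433 (chr12:109591715-109591838), miR-127 (chr12:109592846-109592915) and miR-136 (chr12:109595327-109595388). All 8 lie inside the RefSeq span of Rtl1 (chr12:109564900-109604418). The mature sequences of the 9 mouse-named members follow from 5′ to 3′, to show whether any members share targets by their seed (bases 2 to 8, in capitals), and rat miR-136 had no match in these tables.
miR-673-5p: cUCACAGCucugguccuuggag
miR-337-5p: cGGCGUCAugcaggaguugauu
miR-337-3p: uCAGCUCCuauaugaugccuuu
miR-540-3p: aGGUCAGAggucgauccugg
miR-665: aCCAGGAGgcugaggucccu
miR-431: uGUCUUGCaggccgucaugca
miR-433: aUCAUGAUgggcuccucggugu
miR-127: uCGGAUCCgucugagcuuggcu
miR-136: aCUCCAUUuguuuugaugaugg
The 9 seeds are 9 different sequences, so no members form a seed family. Among 1738 mature mouse miRNAs of the table, 1 other miRNA shares the seed of miR-673-5p (miR-6985-3p) and 1 that of miR-540-3p (miR-6915-5p), neither of them on the cards. The remaining 7 seeds occur in no other miRNA of the table. The miRNAs are 20 to 22 bases long, with a GC content of 36.4% in miR-136 and 65.0% in miR-665 at the extremes.

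The maternal transcript that carries these hairpins is thought to start at the Meg3 promoter. It is shown because the members detected in every library were all lower in adults, though not equally. The promoter's activity was not measured. The window runs from 250 bases before to 50 bases after the RefSeq start (GRCm38.p6, plus strand, chr12:109540746-109541045), with the motifs TGACGTCA and TATATAA in capitals.
Meg3: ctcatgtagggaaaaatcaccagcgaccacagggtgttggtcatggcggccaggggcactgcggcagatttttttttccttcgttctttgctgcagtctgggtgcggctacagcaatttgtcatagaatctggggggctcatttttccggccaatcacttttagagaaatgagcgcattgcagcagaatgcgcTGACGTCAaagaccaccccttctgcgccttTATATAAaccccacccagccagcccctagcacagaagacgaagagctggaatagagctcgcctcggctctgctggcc
TGACGTCA, the cAMP response element, reads the same on both strands and begins at position -57 from the start. The second motif, the core of a TATA box, begins at -27, and a match to its reverse complement overlaps it. Counting both strands, the response element is present in 1.79% and the TATA motif in 3.24% of 32851 promoter windows of this length. The window holds 13 CpG dinucleotides. These matches describe the letters and are no measurement of binding.

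Values below are log2 levels relative to the small nucleolar RNA snoRNA202 (the deposited delta threshold cycle with its sign turned), so that more RNA gives a higher value. Levels of different assays are not comparable with each other, since assays differ in efficiency, and only an assay's differences between libraries are. An assay counted as detected at a threshold cycle (Ct) of 35 or below. By this limit 468 of 750 assays were detected in adult hyperoxia, 468 in adult room air, 507 in neonatal hyperoxia and 477 in neonatal room air. All markers of lung epithelium (5 assays) and endothelium (3 assays) were detected in every library. A technical SD of a difference was taken from 4 control RNAs present on both cards. It was 0.95 log2 for age in hyperoxia, 0.65 for age in room air, 0.33 for oxygen in adults and 0.26 for oxygen in neonates. These SDs leave out variation between animals. In row L of the first card the adult room air library was out of step with the others (r = 0.286 with the mean of the other libraries across wells, against at least 0.769 in every other row and library). The well of miR-540-3p lies in that row, and its adult room air value is left out throughout.

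Of the 10 members, 8 were detected in all 4 libraries, and each of these 8 was at least 2-fold lower in adult than in neonatal lung, in hyperoxia and in room air. With U6 as the reference this held for 6 of 8 in hyperoxia and 7 of 8 in room air. U6 also moved the median of all assays, to 0.99 log2 in hyperoxia and 1.46 in room air. The share of all assays at least 2-fold lower with U6 was not counted, so the U6 counts have no background beside them. With snoRNA202, 49.3% of the 450 assays compared were at least 2-fold lower in hyperoxia and 44.1% of 435 in room air. No member was 2-fold higher, where 10.9% of assays were in hyperoxia and 15.9% in room air. The members stood further out at a larger size. At least 16-fold lower were 6 of 8 members in hyperoxia, against 13.1% of all assays, and 7 of 8 in room air, against 12.4%. The median member difference was -4.81 log2 in hyperoxia, where the median of all assays was -0.98, and -4.71 in room air, where it was -0.72. In bulk RNA, fewer cells that make a miRNA and less of it per cell cannot be told apart.

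Of the Rtl1 antisense group, miR-431, known in mice as a regulator of muscle satellite cells, had log2 levels of -14.45 in adult hyperoxia and -15.34 in adult room air, against -4.89 in neonatal hyperoxia and -5.27 in neonatal room air. miR-433, its neighbour, had -14.58 in adult hyperoxia and -16.35 in adult room air, against -6.91 in neonatal hyperoxia and -6.89 in neonatal room air. Both were thus readily measured in the newborn and late in the adult, where their Ct was 27.3 to 29.8. The age difference of miR-431 was -9.56 log2 in hyperoxia and -10.06 in room air, ranks 3 of 450 and 5 of 435 from the lowest, and that of miR-433 was -7.68 and -9.46, ranks 8 and 6.

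miR-127 had log2 levels of -8.20 in adult hyperoxia and -8.22 in adult room air, against -4.73 in neonatal hyperoxia and -3.92 in neonatal room air. miR-136 had -10.22 in adult hyperoxia and -9.94 in adult room air, against -5.56 in neonatal hyperoxia and -4.85 in neonatal room air. With snoRNA202 both adult libraries thus lay below both neonatal ones, with a gap several times the technical SD. The age difference was -3.47 log2 for miR-127 and -4.65 for miR-136 in hyperoxia, and -4.31 and -5.09 in room air. With U6 that of miR-127 was -0.49 in hyperoxia, within the technical SD of 0.95, and -1.66 in room air. The rat-named miR-136 assay, read on the other card, had -17.19 in adult hyperoxia and -17.56 in adult room air, against -12.47 in neonatal hyperoxia and -12.54 in neonatal room air. Its age differences were -4.73 in hyperoxia and -5.03 in room air. How close both assays lay depended on the reference of each card: with U6 the rat-named assay was at -4.07 in hyperoxia and the mouse-named at -1.68, and in room air they were at -3.68 and -2.44.

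**Figure D1:**
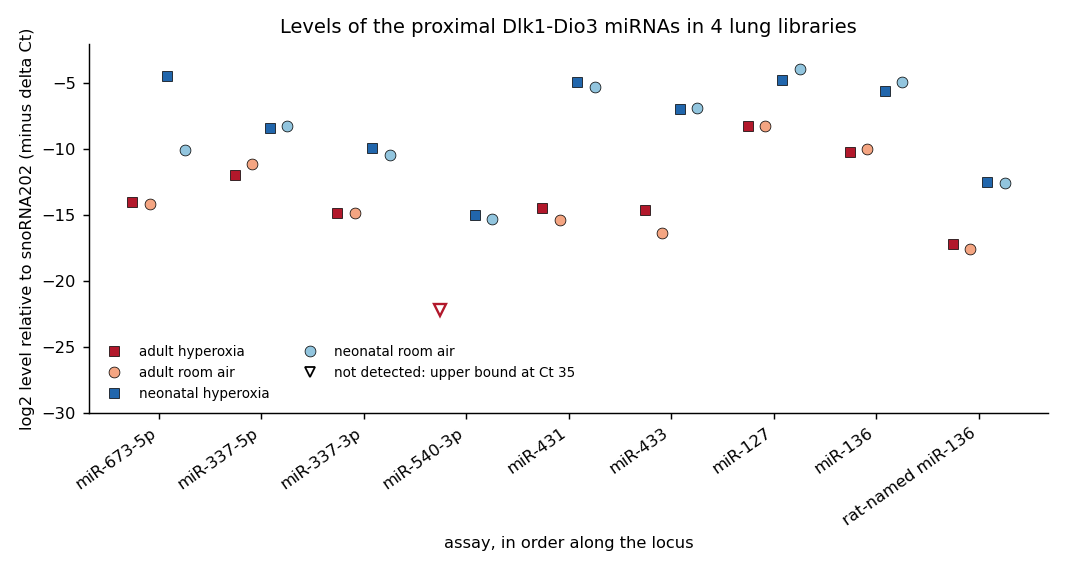
Log2 level relative to snoRNA202 (vertical axis) of 9 member assays in order along the locus, with 1 point per library and no error bars, since each group has 1 library; miR-665 was detected nowhere and is not drawn. For each of the 8 assays with 4 points both adult points (red shades) lie below both neonatal points (blue shades), and the open triangle marks the upper bound of undetected miR-540-3p in adult hyperoxia.

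Of the upstream group, miR-337-5p had log2 levels of -11.91 in adult hyperoxia and -11.13 in adult room air, against -8.38 in neonatal hyperoxia and -8.24 in neonatal room air. Its partner arm miR-337-3p had -14.82 in adult hyperoxia and -14.85 in adult room air, against -9.92 in neonatal hyperoxia and -10.45 in neonatal room air. Both arms were lower in the adult, miR-337-5p by the smallest room air difference of any member (-2.89 log2; -3.54 in hyperoxia). For miR-337-3p the differences were -4.90 in hyperoxia and -4.40 in room air. miR-673-5p had -13.98 in adult hyperoxia and -14.18 in adult room air, against -4.41 in neonatal hyperoxia and -10.08 in neonatal room air. Its adult values were close together, and its age difference was -9.57 in hyperoxia but -4.10 in room air.

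The 2 remaining members were detected rarely or not at all. miR-540-3p gave no crossing (Ct 40) in adult hyperoxia, against Ct values of 28.5 for neonatal hyperoxia and 29.3 for neonatal room air. With Ct 35 as the bound, its difference between adult and neonatal hyperoxia was -7.21 log2 or lower. miR-665 gave no crossing in 3 libraries and a Ct of 35.9 in neonatal room air, above the detection limit, so no difference can be given.

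The age difference was tested over both atmospheres with limma, in an additive fit that also holds an oxygen term, and p-values were adjusted by Benjamini-Hochberg over the 426 assays detected in every library. It fitted 8 members, and 7 of them fell with age, against 27.9% of all fitted assays that fell. On the mmu-miR-431 assay the level fell by 9.81 ± 0.29 log2 units (SE; limma, adjusted p = 0.0152), which would be 899-fold if every cycle doubled the product exactly. On mmu-miR-433 it fell by 8.57 ± 0.61 (limma, adjusted p = 0.0173), or 380-fold on the same assumption. The other assays that fell were mmu-miR-136 (-4.87), rno-miR-136 (-4.88), mmu-miR-337-3p (-4.65), mmu-miR-127 (-3.89) and mmu-miR-337-5p (-3.21), with limma adjusted p-values of 0.0152 to 0.0233 and SEs of 0.26 to 0.35. miR-673-5p, at -6.83 ± 1.72 log2, did not pass (limma, adjusted p = 0.0826). The fit leaves each assay 1 residual degree of freedom and takes the oxygen effect to be equal in adults and newborns. With U6 as the reference, miR-127 at -1.08 (limma, adjusted p = 0.113) and miR-337-5p at -0.40 (limma, adjusted p = 0.323) were no longer called. A permutation of 2 adult against 2 neonatal libraries could not give an exact p below 0.333.

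**Figure D2:**
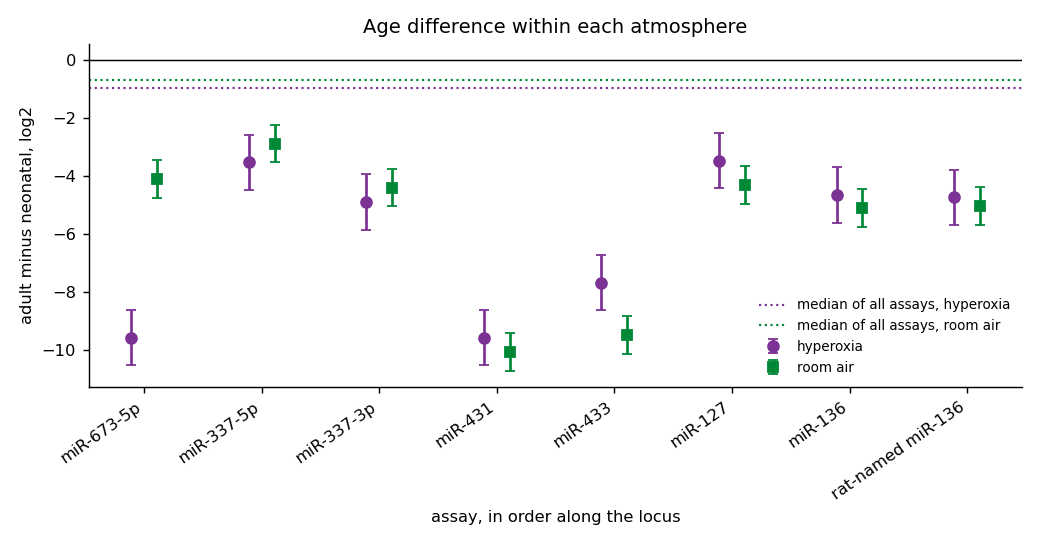
Age difference (adult minus neonatal, log2, vertical axis) of the 8 members measured in all libraries, in hyperoxia (circles) and in room air (squares), with bars of 1 technical SD from 4 control RNAs and dotted lines at the medians of all assays. Every point lies between -2.89 and -10.06, miR-431 and miR-433 lie lowest in room air, and miR-673-5p is the assay whose atmospheres differ most.

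The members did not fall equally, and differences between assays of the same card are free of the choice of reference RNA. On the first card, the age shift of miR-431 minus miR-127 was -6.09 log2 in hyperoxia and -5.76 in room air. The corresponding shift of miR-433 against miR-127 was -4.21 in hyperoxia and -5.16 in room air. The antisense hairpin with the largest fitted fall lies close to that with the smallest, the hairpins of miR-431, miR-433 and miR-127 starting 18.5, 19.7 and 20.9 kb from the first hairpin of the group. These 3 miRNAs have GC contents of 57.1%, 54.5% and 59.1%. A relation of position or GC content to the size of the fall was not tested. The arms of the miR-337 hairpin also diverged. miR-337-5p minus miR-337-3p was 2.91 log2 in adult hyperoxia and 3.73 in adult room air, against 1.54 in neonatal hyperoxia and 2.21 in neonatal room air, so the adult shift was 1.36 in hyperoxia and 1.51 in room air. Both adult libraries lay above both neonatal ones in this contrast, to which no model was fitted. Between hyperoxia and room air the same contrast shifted by -0.82 in adults and -0.67 in neonates.

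The age differences of the 2 atmospheres share no library, and they lay close together for most members. The median absolute gap was 0.58 log2 over 8 members, and across them the differences correlated at r = 0.636, or 0.964 over 7 without miR-673-5p. Leaving out miR-673-5p was chosen after seeing the data, and miR-136 entered by both its assays. This is a description over assays read on the same cards. The gaps (difference in hyperoxia minus that in room air) of the other members lay between -0.65 for miR-337-5p and 1.79 for miR-433, while that of miR-673-5p was -5.47.

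After hyperoxia most members lay near their room air level. In neonates 1 of 9 members was at least 2-fold higher after hyperoxia, where 13.6% of 469 assays were, and 0 were at least 2-fold lower, where 8.53% were. In adults 1 of 8 was at least 2-fold higher, where 5.13% of 448 assays were, and 0 at least 2-fold lower, where 8.04% were. A count of 1 member does not stand apart from these shares. The member median was 0.12 log2 in adults and 0.07 in neonates, where the medians of all assays were -0.14 and 0.13. In the limma model 0 of 8 members were called for oxygen (Benjamini-Hochberg adjusted p = 0.963 for each), 0 had an unadjusted p under 0.05, and 0% of all 426 assays were called, of which 13 had an unadjusted p under 0.05.

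The member that was 2-fold higher in adult hyperoxia was miR-433, at 1.77 log2, beyond the technical SD of 0.33. Its neighbour miR-431 was at 0.88 there and reached 1.13 to 1.55 under 4 of 5 other normalizations. In the neonate these assays were at -0.02 and 0.38. Conversely, miR-127 and miR-136 were lower in neonatal hyperoxia, at -0.82 and -0.72, beyond the technical SD of 0.26 but under 2-fold, whereas in adults they lay at 0.02 and -0.28. The rat-named miR-136 assay did not show that neonatal difference, at 0.07. The upstream miRNAs miR-337-3p and miR-540-3p lay at 0.53 and 0.34 in neonates, and miR-337-5p at -0.79 in adults and -0.13 in neonates. Whether oxygen acted differently at the 2 ages could not be tested with 1 library per group.

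**Figure D3:**
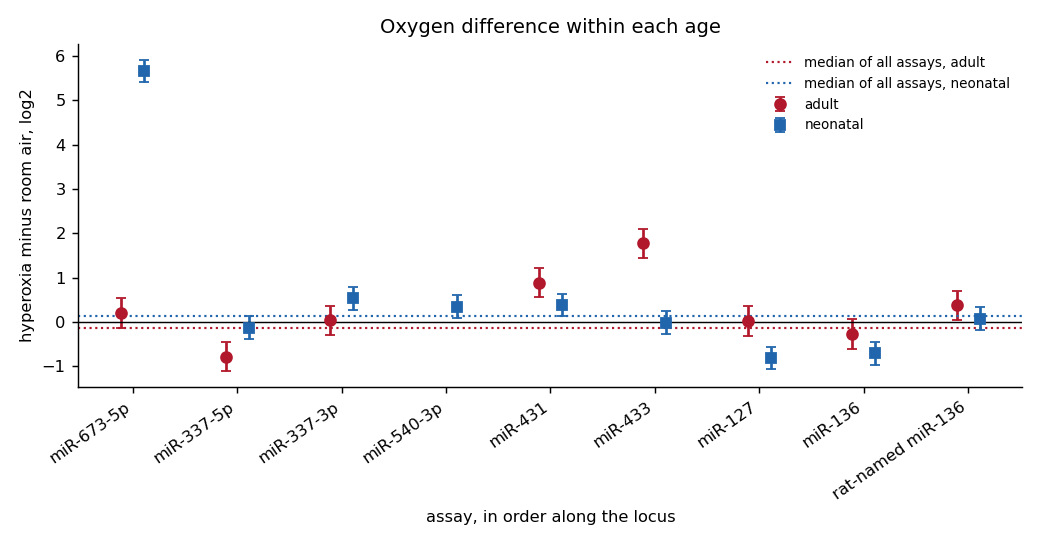
Oxygen difference (hyperoxia minus room air, log2, vertical axis) of the members in adults (circles) and neonates (squares), with bars of 1 technical SD from 4 control RNAs and dotted lines at the medians of all assays. All points lie between -0.82 and 1.77 except neonatal miR-673-5p at 5.67.

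The neonatal oxygen difference of miR-673-5p was 5.67 log2, rank 3 of 469 from the highest, and 1.07% of all assays reached 16-fold. The neonatal hyperoxia library crossed at a Ct of 19.0, against 25.4 in neonatal room air, and the adult libraries crossed at 27.7 in hyperoxia and 27.6 in room air. The opposite arm of the hairpin did not show it. This arm, miR-673-3p, had log2 levels of -18.01 in adult hyperoxia and -15.66 in adult room air, against -13.01 in neonatal hyperoxia and -12.48 in neonatal room air, a neonatal oxygen difference of -0.53. The rat-named miR-673 assay was at -8.59 in neonatal hyperoxia and -7.47 in neonatal room air, a difference of -1.12. The Ct values of this rat-named assay are identical in all 4 libraries to those of the assay named for rat miR-742, so they may belong to either miRNA. No cause of the single early Ct of miR-673-5p was tested.

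Of the other assays of the member hairpins, the 3 detected in every library fell with age. The mmu-miR-673-3p assay fell by 4.09 ± 0.62 log2 units (limma, adjusted p = 0.0423), and the rat-named assays rno-miR-337 (-4.67) and rno-miR-136* (-3.5015), a passenger strand, fell too. The rat-named miR-673 assay gave no crossing in either adult library and its age difference was bounded at -13.57 log2 or lower in hyperoxia and -14.10 or lower in room air, with the same doubt about which miRNA the readings belong to. The mouse-named miR-136* was detected in the neonates alone, at Ct values of 31.9 (hyperoxia) and 32.2 (room air), with age differences of -3.94 or lower in hyperoxia and -4.67 or lower in room air. The passenger strand miR-127* was detected in neonatal hyperoxia alone, at a Ct of 31.5, and miR-431* and miR-433* nowhere. miR-540-5p, another row L well, was detected in adult room air (Ct 29.8), the library in which this row is out of step, and in neonatal hyperoxia (Ct 34.0), and not in adult hyperoxia or neonatal room air.

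**Figure D4:**
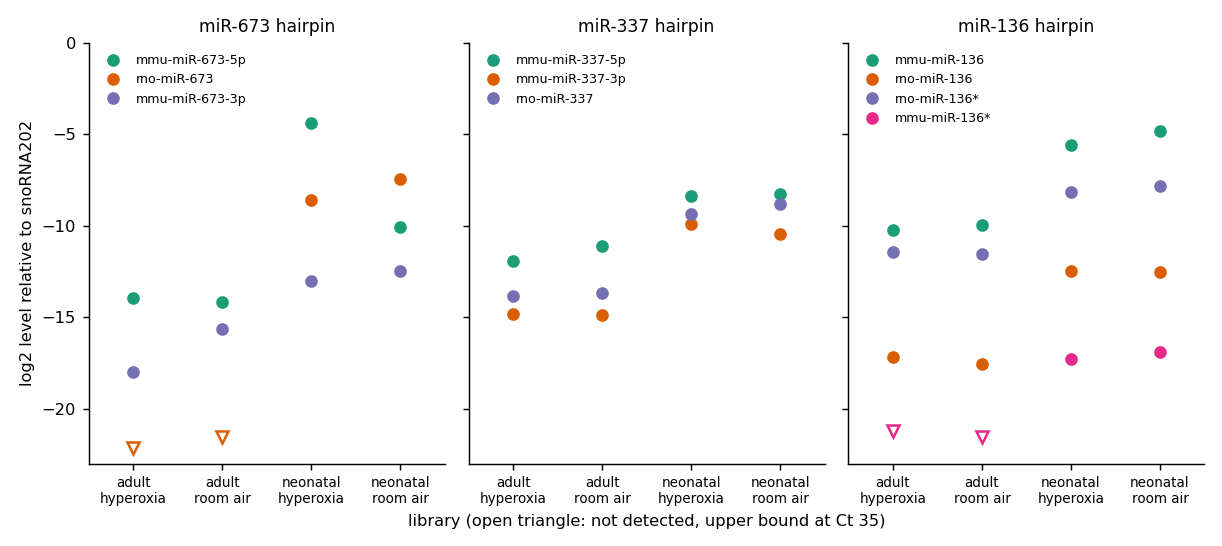
Log2 level relative to snoRNA202 (vertical axis) in the 4 libraries of the assays that read the miR-673, miR-337 and miR-136 hairpins, with filled points for detected values and open triangles for upper bounds at Ct 35. Adult points lie below neonatal points for each assay, and in neonatal hyperoxia miR-673-5p stands at -4.41 while its opposite arm miR-673-3p, like the rat-named assay whose readings may belong to miR-742, lies lower there than in neonatal room air.

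Further assays of the proximal domain, listed with the results of these data known, were lower in adults too. miR-434-3p, whose hairpin belongs to the Rtl1 antisense group, is listed under the miRBase name mmu-miR-434. It had log2 levels of -8.76 in adult hyperoxia and -8.71 in adult room air, against -4.07 in neonatal hyperoxia and -4.47 in neonatal room air. It fell by 4.46 ± 0.28 (limma, adjusted p = 0.0152), and its age shift against miR-127 was -1.22 in hyperoxia and 0.07 in room air. miR-370 also fell, at -10.10 ± 0.62 log2 (limma, adjusted p = 0.0152). This was the largest fitted fall of all 426 assays, larger than that of any member. miR-1188 fell too, at -2.44, so that 3 of 3 fitted assays fell. miR-493 was detected in neonates alone, with age differences of -5.51 log2 or lower in hyperoxia and -4.89 or lower in room air, and miR-770-3p and miR-770-5p, whose hairpin lies in Meg3, were detected nowhere. In the distal miR-379 to miR-410 group, 17 of 19 fitted assays fell and 0 rose (limma). The median fitted difference was -5.17 log2, beside -4.87 for the members and -0.88 for all assays. The largest distal fall, that of miR-412 at -9.51, lay between those of miR-431 and miR-433. One of the 2 assays not called, miR-543, has its well in row L, with an age difference of -5.19 in hyperoxia and -0.41 in room air. The other was miR-381, which lay at -1.01 ± 0.45 (limma, adjusted p = 0.194). A difference between both groups was not tested.

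The 5 assays nearest in profile to the mean of the 8 fitted members, by root mean square distance over the 4 centred libraries among 414 candidates, were miR-135b (0.26 log2), miR-1193 (0.31), miR-410 (0.32), miR-369-5p (0.40) and miR-411 (0.41). By RefSeq miR-135b lies on chromosome 1 and the other 4 on chromosome 12, within the distal group of the same domain. miR-135b differed by -5.37 log2 between adult and neonatal hyperoxia and by -5.81 in room air. The 8 members themselves lay further from their mean than these 5 assays, from 0.52 log2 for the rat-named miR-136 to 2.00 for miR-431.

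Cell type markers were read beside the age difference. Of the fitted assays, 0 of 5 epithelium, 0 of 4 leukocyte, 0 of 3 erythroid, 1 of 3 endothelium and 1 of 2 brain miRNAs fell (limma). Of all fitted assays 27.9% fell. The summed level of 3 mesenchyme miRNAs, per 1000 parts of snoRNA202, was 71.0 in adult hyperoxia and 94.6 in adult room air, against 254 in neonatal hyperoxia and 217 in neonatal room air, and 2 of the 3 fell (limma). All 3 were detected in every library, and their part in the members' age difference was not tested. The summed level of the striated muscle miRNAs was 36.4 in adult hyperoxia and 53.9 in adult room air, against 74.6 in neonatal hyperoxia and 31.8 in neonatal room air. Of these 6 assays 1 of 5 fitted fell, and miR-499 was not detected in adult hyperoxia or neonatal room air. The 3 brain miRNAs summed to 0.301 and 0.280 in adult hyperoxia and adult room air, against 0.368 and 0.267 in the matching neonatal libraries, where miR-124 was not detected in room air.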

How the data were processed

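Per the labels' protocols, Megaplex primers served for reverse transcription of total RNA and for preamplification, before TaqMan detection. The authors deposited Ct and delta Ct (the Ct of a well less that of snoRNA202), log2 scales per the file headers, with Ct 40 for no crossing. Software and thresholds: not given in the sources used here. Each library fills 2 cards of 384 wells, and 18 of the 768 wells are controls. In adult room air the second card's delta Ct uses the first card's snoRNA202 (13.43 in place of 13.66). Precision cannot be given as read depth: the median detected Ct was 24.0 to 24.2. Levels are minus delta Ct. Pairs of libraries were compared over assays detected in both (Ct up to 35), and a difference of 1 log2 unit was counted. The additive limma model (version 3.58.1, R 4.3.3; terms for age and oxygen) was tested on simulated data. The technical SD is the root mean square gap between cards of U6, snoRNA135, U87 and Y1, divided by the square root of 2. No label says that libraries are separate animals, so p-values cover the spread among these libraries alone, which may be technical. Named are all members, all other assays of their hairpins, further proximal assays and the 5 nearest profiles. Members, lists and rules were chosen with earlier results of these data known. Normalizations, detection limits and left-out members or libraries were varied.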

Additional observations from a re-analysis of the deposited data

How the results depend on the processing

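The reference RNA sets the size of the age difference. The member median in hyperoxia, -4.81 log2, was -3.52 with mean centring, -2.996 with U6 and -3.47 with each card centred, and that in room air, -4.71, was -3.93, -2.60 and -3.59. A change of reference moves all assays of a card alike. The member median minus the median of all assays is therefore nearly fixed by construction, and its steadiness is no check of the fall. It lay between -3.98 and -3.83 log2 in hyperoxia and between -4.19 and -3.99 in room air under all 6 normalizations. The fitted members that fell numbered 7 of 8, against 119 of all 426 fitted assays. With U6 they numbered 5 of 8, against 71 of 426, and without miR-673-5p 7 of 7. An age-only model with each library left out in turn was an alternative chosen after seeing the data. It leaves 1 library in an age group, so only effect sizes are given. Without 1 neonatal library, a lone neonatal library is assumed to vary like the adults and the gap between neonates drops out by construction. The age difference of miR-673-5p was then -3.997 without neonatal hyperoxia and -9.67 without neonatal room air. No fitted age difference changed sign under any alternative tried. For oxygen in adults, the median of 0.12 was 0.54 with mean centring, which also moved the median of all assays from -0.14 to 0.14. There 2 members in place of 1 were at least 2-fold higher, as with U6, both snoRNAs or each card centred. For oxygen in neonates, 1 member was at least 2-fold lower with each card centred, miR-127 at -1.02, and 0 were 2-fold higher without miR-673-5p. The share of all assays was not counted under the other normalizations, so these member counts have no background beside them. No member was called for oxygen under any setting (limma). No paired analysis was possible because each group held 1 library. Late Ct values of the adult libraries have no repeat, so their precision is unknown.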
